A study of Mus musculus with 11 samples.

Results

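Primary cilium and intraflagellar transport genes were followed in 41 members, chosen by gene name from a list of intraflagellar transport (IFT) complexes, the BBSome, the transition zone and ciliary motors. All 41 were found in the table of 43346 genes, all are protein-coding and all 41 passed the filter on low values, so none was left out. The labelled cell type is cholangiocytes, the epithelium of the bile ducts, isolated from liver with EpCAM (CD326) microbeads over successive MACS columns. All 11 libraries were from wildtype male C57BL/6 mice aged 14 to 16 weeks. The 4 Control libraries were from mice on chow, and the 4 DDC libraries from mice given 10 days of the DDC diet, a porphyrinogenic diet that causes cholestatic liver injury. The 3 R15 libraries were from mice given 10 days of that diet and then 15 days of chow. Each library name carries its own M number, but the labels do not state that each library is a single animal, so p-values measure the spread between these samples.

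A cholangiocyte carries 1 primary cilium, a non-motile antenna that reaches into the bile and senses flow, solutes and osmolarity. IFT trains carry cargo along its microtubules, outward with kinesin-2 and the IFT-B complex and back with dynein-2 and the IFT-A complex. The BBSome moves membrane proteins on these trains, and the transition zone at the base acts as the gate. Defects in many of these genes cause ciliopathies, several of them with cysts or fibrosis of the bile ducts. Cells take the cilium down before they divide. Only transcripts were measured, so the cilia themselves were not.

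Promoter stretches of 4 members are shown because they hold different sets of the motifs counted below and the genes differ in what they did on the diet. The sequences are from RefSeq (GRCm38.p6, the assembly of mm10) and run 5′ to 3′ on the gene's strand, from 120 bases before to 30 after the RefSeq start. Capitals mark CCAAT, the pentamer bound by NF-Y, which the series title names, GTTGCC, a half-site of the X-box bound by RFX factors, and the whole X-box. They are searched on both strands, so CCAAT can read ATTGG. The stretches are shorter than the 300 bases counted below, in which all 4 genes hold CCAAT: that of Ift172 and that of Ift57 lie upstream of the printed bases. The X-box was searched by its degenerate consensus, which can contain GTTGCC.
Ift172, chr5:31291085-31291234, minus strand, one of the largest falls: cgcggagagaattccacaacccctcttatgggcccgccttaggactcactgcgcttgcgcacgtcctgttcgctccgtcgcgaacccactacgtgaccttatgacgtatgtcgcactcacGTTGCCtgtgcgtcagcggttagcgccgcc
Bbs1, chr19:4906598-4906747, minus strand, a fall, with an X-box: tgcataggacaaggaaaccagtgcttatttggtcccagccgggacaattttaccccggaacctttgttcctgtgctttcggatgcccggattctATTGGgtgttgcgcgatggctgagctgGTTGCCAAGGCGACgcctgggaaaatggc
Ift57, chr16:49699174-49699323, plus strand, no change past the test, with 2 X-boxes: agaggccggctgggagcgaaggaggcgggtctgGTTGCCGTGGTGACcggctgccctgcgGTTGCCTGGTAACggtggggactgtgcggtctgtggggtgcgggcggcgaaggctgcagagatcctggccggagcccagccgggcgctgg
Ift74, chr4:94614371-94614520, plus strand, the largest rise of the members: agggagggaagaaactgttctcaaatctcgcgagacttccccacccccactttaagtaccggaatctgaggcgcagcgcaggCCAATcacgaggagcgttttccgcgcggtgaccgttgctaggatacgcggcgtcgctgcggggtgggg

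A promoter window of 300 bases (250 before to 50 after the start) was at hand for 36 of the 41 members, all but Anks6, Ift80, Ift81, Ift122 and Tmem67. GTTGCC stood in 17 of the 36 (47.2%) and in 14.1% of the 27025 genes with a window, or 14.7% of the 10440 of them that were tested. CCAAT stood in 22 of the 36 (61.1%), in 41.1% of all genes and in 42.4% of those tested. The full X-box stood in 2 of the 36, Bbs1 and Ift57, and in 1.75% of all genes. Both motifs occurred in members of every call. GTTGCC was found in 7 of 15 members lower on the diet, 2 of 5 higher and 8 of 16 not called, and CCAAT in 9 of 15, 2 of 5 and 11 of 16. These are matches of letters, and binding was not measured.

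Library totals, recovered as whole reads from the table, ran from 49339240 to 72929107. The lowest count of any member in any library was 436 reads. In Control the members ranged from 1.34 ± 0.294 FPKM (SD, n = 4) for the transition zone gene Nphp4 to 62.4 ± 4.20 for the GTPase gene Arl3, with a median of 7.59 against 8.23 for all genes tested. FPKM scales reads to gene length and library size. The length is that of the gene model, from 775 bases for Ift43 to 16161 for Dync2h1, so levels compare only roughly between genes. The libraries held the cholangiocyte markers at summed levels of 9577 to 12280 FPKM in Control, 11920 to 13430 in DDC and 10150 to 11170 in R15 (12 genes, none at 0). Markers of other cell types were detected too. The 10 macrophage markers summed to 126.3 to 150.1 FPKM in Control, 1360 to 2440 in DDC and 141.6 to 731.8 in R15, the 10 endothelial markers to 106.5 to 469.8, 31.4 to 69.1 and 69.3 to 238.6, and the 10 hepatocyte markers to 2941 to 3636, 1061 to 1594 and 1798 to 2473. Over the 3 groups together the 6 B and plasma cell markers summed to between 11.6 and 172.8 FPKM, the 8 T and NK cell markers to between 1.85 and 15.9 and the 8 stellate and fibroblast markers to between 1.06 and 6.41. The 13 pancreatic acinar markers set 5 libraries apart, with sums of 7755, 2057 and 918.3 FPKM for Control 1 to Control 3, 1022 for DDC 1 and 1272 for R15 3, against 6.18 to 11.6 in the other 6.

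On the DDC diet most of the members that changed were lower, and by modest amounts. Of the 41 members 19 were lower than in Control and 5 higher by limma at a Benjamini-Hochberg adjusted p under 0.05 (24 called, 58.5%), where 65.4% of the 15264 genes tested were called, 31.9% lower and 33.5% higher. The share called was thus no higher than the background, while 79.2% of the called members were lower against 48.8% of all called genes. With each library rescaled to one total, 20 members were lower and 2 higher. The median change of the members was -0.15 on the log2(FPKM + 1) scale, where that of all genes was 0.00 (-0.22 and -0.07 when rescaled). No member moved past 1 on that scale, where 1932 genes (12.7%) did. In 18 members every DDC library lay below every Control library (29.8% of all genes), and in 4 members above (31.5%; 61.3% in either direction). Without the 5 libraries rich in pancreatic transcripts, which left a lone Control library, the median was -0.25 for the members and 0.02 for all genes. In bulk RNA, fewer cells of a type and less RNA per cell cannot be told apart, and the part of the other cell types' markers in these values was not tested.

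After 15 days back on chow the movement was upward. R15 was higher than DDC in 27 of the 41 members and lower in 0 (65.9% called), where 62.2% of all genes were called, 33.4% higher and 28.8% lower. At an unadjusted p under 0.05 limma gave 27 higher and 1 lower. Of the 15264 genes tested 5410 were higher and 4650 lower at that limit (65.9% in either direction). With limma voom on the recovered reads 24 members were higher and 2 lower, with a median of 0.42 against 0.01 for all genes. The median change was 0.37 for the members and 0.04 for all genes. In 30 members every R15 library lay above every DDC library (35.6% of all genes), and in 2, Ift46 and Kif3b, below (31.0%; 66.6% in either direction). Without the 5 libraries rich in pancreatic transcripts the median was 0.39 for the members and 0.03 for all genes. This comparison shares the DDC libraries with the one before, so that the values of each are given side by side and their likeness is not a separate result. Rescaling to one total moved the median of all genes from 0.04 to 0.14 and that of the members from 0.37 to 0.46. With it 31 members were higher and 0 lower.

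**Figure D1:**
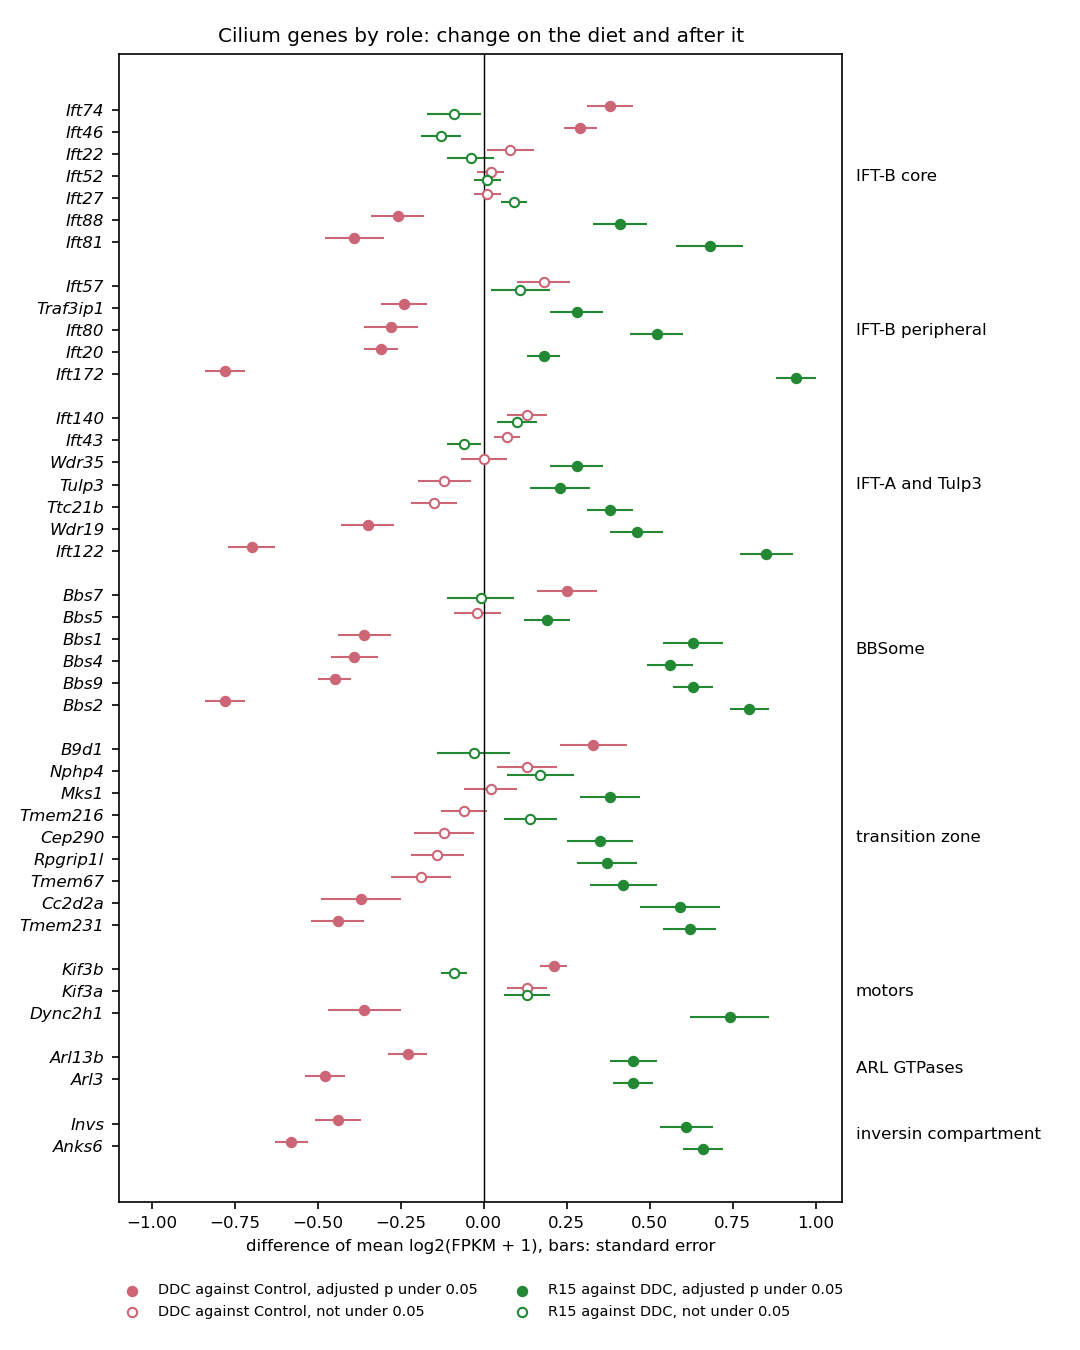
Difference of mean log2(FPKM + 1) for each of the 41 members, grouped by role, in DDC against Control (red, 4 and 4 libraries) and in R15 against DDC (green, 3 and 4 libraries); bars are standard errors, and filled points have a limma adjusted p under 0.05. Ift172 lies at -0.78 on the diet and 0.94 after it, Bbs2 at -0.78 and 0.80, and every filled green point is right of 0.

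The IFT-B complex drives outward transport and is built of a core and a peripheral part. On the diet the peripheral part was lower in 4 of 5 members (80% called). Of the 7 core members 2 were lower and 2 higher (57.1% called). The share of all genes was 65.4%, with 31.9% lower, and the difference between the parts was not tested. Ift172 (ENSMUSG00000038564; mm10 chromosome 5, 31253280 to 31291114), the largest peripheral subunit, stood at 15.5, 16.2, 13.8 and 16.7 FPKM in Control, 9.02, 8.93, 8.04 and 8.51 in DDC and 18.2, 16.8 and 17.5 in R15. DDC lay below every other library. The change was -0.78 ± 0.06 (SE) for DDC against Control (limma adjusted p = 2.6e-06) and 0.94 ± 0.06 for R15 against DDC (adjusted p = 3.4e-06). Ift20, which also works at the Golgi, fell by 0.31 on the log2 scale, Ift80 by 0.28 and Traf3ip1, the IFT54 subunit that binds microtubules, by 0.24. In R15 against DDC these were at 0.18 ± 0.05, 0.52 ± 0.08 and 0.28 ± 0.08, all higher by the test, a call Ift20 lost with median-of-ratios scaling and Traf3ip1 without R15 1. Ift57 was at 0.18 ± 0.08 on the diet (95% interval -0.00 to 0.37) and was not called in any comparison.

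In the core, Ift88 (ENSMUSG00000040040; mm10 chromosome 14, 57424062 to 57517936), the gene mutated in the Oak Ridge polycystic kidney mouse, stood at 6.98, 8.11, 6.91 and 8.55 FPKM in Control, 6.26, 6.45, 6.27 and 5.80 in DDC and 9.52, 7.95 and 8.20 in R15. Every DDC library was below every Control library, by a small margin. The change was -0.26 ± 0.08 on the diet (limma adjusted p = 0.011) and 0.41 ± 0.08 in R15 against DDC (adjusted p = 0.0016). Ift81 and Ift74 encode a pair of proteins that bind each other and carry tubulin, and they moved in opposite directions on the diet, a difference that was not itself tested. Ift81 fell from 12.2 ± 1.66 FPKM in Control (SD, n = 4) to 9.08 ± 0.723 in DDC (SD, n = 4), a change of -0.39 ± 0.09, and was at 0.68 ± 0.10 in R15 against DDC. Ift74 (ENSMUSG00000028576; mm10 chromosome 4, 94614491 to 94693229) stood at 7.89, 10.2, 8.09 and 9.02 FPKM in Control, 12.3, 12.0, 11.2 and 11.2 in DDC and 11.1, 11.4 and 10.3 in R15. It was higher in DDC than in Control without overlap, at 0.38 ± 0.07 (limma adjusted p = 0.0011), the largest rise of the members. R15 lay with DDC rather than Control, at -0.09 ± 0.08 against DDC (adjusted p = 0.34). Ift46 (ENSMUSG00000002031; mm10 chromosome 9, 44767908 to 44792714), another core subunit, stood at 5.92, 6.84, 6.64 and 6.32 FPKM in Control, 7.91, 8.21, 8.19 and 7.93 in DDC and 7.72, 6.77 and 7.39 in R15, again with no overlap between Control and DDC. Its change was 0.29 ± 0.05 on the diet (limma adjusted p = 6.3e-04) and -0.13 ± 0.06 in R15 against DDC (adjusted p = 0.065), where all R15 libraries lay below DDC and the call was made under 4 other scalings or weightings and without Control 1 or R15 1. The GTPase-like subunit genes Ift22 and Ift27 and the scaffold gene Ift52 were not called in any comparison, at 0.08 ± 0.07, 0.01 ± 0.04 and 0.02 ± 0.04 on the diet. The interval of the Ift52 change ran from -0.06 to 0.10.

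IFT-A turns trains around at the tip and, with the adaptor Tulp3, brings receptors into the cilium. On the diet 2 of these 7 members were lower and 0 higher (28.6% called, against 65.4% of all genes). In R15 against DDC 5 were higher (71.4% called, against 62.2% of all genes). Ift122 (ENSMUSG00000030323; mm10 chromosome 6, 115853470 to 115926699), a core subunit, stood at 10.99, 13.0, 10.2 and 12.2 FPKM in Control, 6.70, 7.24, 6.62 and 6.30 in DDC and 13.8, 12.0 and 13.0 in R15. The DDC libraries were the 4 lowest. The change was -0.70 ± 0.07 (limma adjusted p = 1.8e-05), followed by 0.85 ± 0.08 in R15 against DDC (adjusted p = 1.6e-05). Wdr19, the IFT144 subunit, was at -0.35 ± 0.08 and 0.46 ± 0.08 in the same comparisons. Wdr35, the IFT121 subunit (ENSMUSG00000066643; mm10 chromosome 12, 8973892 to 9028847), showed another pattern. It stood at 6.89, 8.48, 6.71 and 8.07 FPKM in Control, 7.62, 7.85, 7.43 and 7.14 in DDC and 9.98, 9.13 and 8.94 in R15. Control and DDC overlapped, and R15 lay above both. The change was 0.00 ± 0.07 on the diet (95% interval -0.16 to 0.16), 0.28 ± 0.08 in R15 against DDC (limma adjusted p = 0.0089) and 0.28 ± 0.08 in R15 against Control (adjusted p = 0.046). Ttc21b, the IFT139 subunit, was at -0.15 ± 0.07 on the diet, not called, and at 0.38 ± 0.07 after it, called. Tulp3 was at -0.12 ± 0.08 and 0.23 ± 0.09, and its call in R15 against DDC was lost under several alternatives, among them median-of-ratios scaling and leaving out Control 4, DDC 1, DDC 3, DDC 4, R15 1 or R15 3. Ift43 and Ift140 were not called on the diet or in R15 against DDC.

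The BBSome ferries membrane proteins out of the cilium. On the diet 4 of its 6 members were lower and 1 higher (83.3% called, against 65.4% of all genes). In R15 against DDC 5 were higher (83.3% called, against 62.2% of all genes). Bbs2 (ENSMUSG00000031755; mm10 chromosome 8, 94067954 to 94098811) stood at 15.5, 17.2, 15.1 and 17.4 FPKM in Control, 9.21, 9.35, 8.72 and 8.96 in DDC and 18.1, 15.9 and 15.7 in R15. The DDC values were all under 10 FPKM and all others over 15. The change was -0.78 ± 0.06 (limma adjusted p = 2.3e-06) and then 0.80 ± 0.06 (adjusted p = 6.6e-06), which left R15 at 0.02 ± 0.06 against Control (95% interval -0.12 to 0.16). Bbs9 (ENSMUSG00000035919; mm10 chromosome 9, 22475715 to 22888280) stood at 5.51, 5.71, 4.90 and 5.26 FPKM in Control, 3.71, 3.79, 3.77 and 3.29 in DDC and 6.07, 6.17 and 6.29 in R15. DDC was lowest and R15 highest, with no overlap between any of the groups, at -0.45 ± 0.05 (limma adjusted p = 4.9e-05) and 0.63 ± 0.06 (adjusted p = 1.6e-05). Bbs1 and Bbs4 were at -0.36 ± 0.08 and -0.39 ± 0.07 on the diet and at 0.63 ± 0.09 and 0.56 ± 0.07 in R15 against DDC, all called. Bbs7 (ENSMUSG00000037325; mm10 chromosome 3, 36573142 to 36613477), which forms a subcomplex with Bbs2 and Bbs9 during assembly, went the other way. It stood at 2.32, 3.15, 2.79 and 2.58 FPKM in Control, 3.70, 3.63, 3.15 and 3.16 in DDC and 3.89, 2.94 and 3.35 in R15. DDC 3 and Control 2 all but touched, at 3.15 FPKM each. The rise was 0.25 ± 0.09 (limma adjusted p = 0.029) and lost its call without Control 1, Control 4, DDC 1 or DDC 2, at 0.20 to 0.24. It was also lost with libraries rescaled to one total (0.19), quantile normalization (0.18), no filter on low values, the replicate number as a block, and the 5 libraries rich in pancreatic transcripts left out. Bbs5 was at -0.02 ± 0.07 on the diet, not called, and at 0.19 ± 0.07 in R15 against DDC, a call lost with median-of-ratios scaling and without any of DDC 1 to DDC 4, R15 1 or R15 2.

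**Figure D2:**
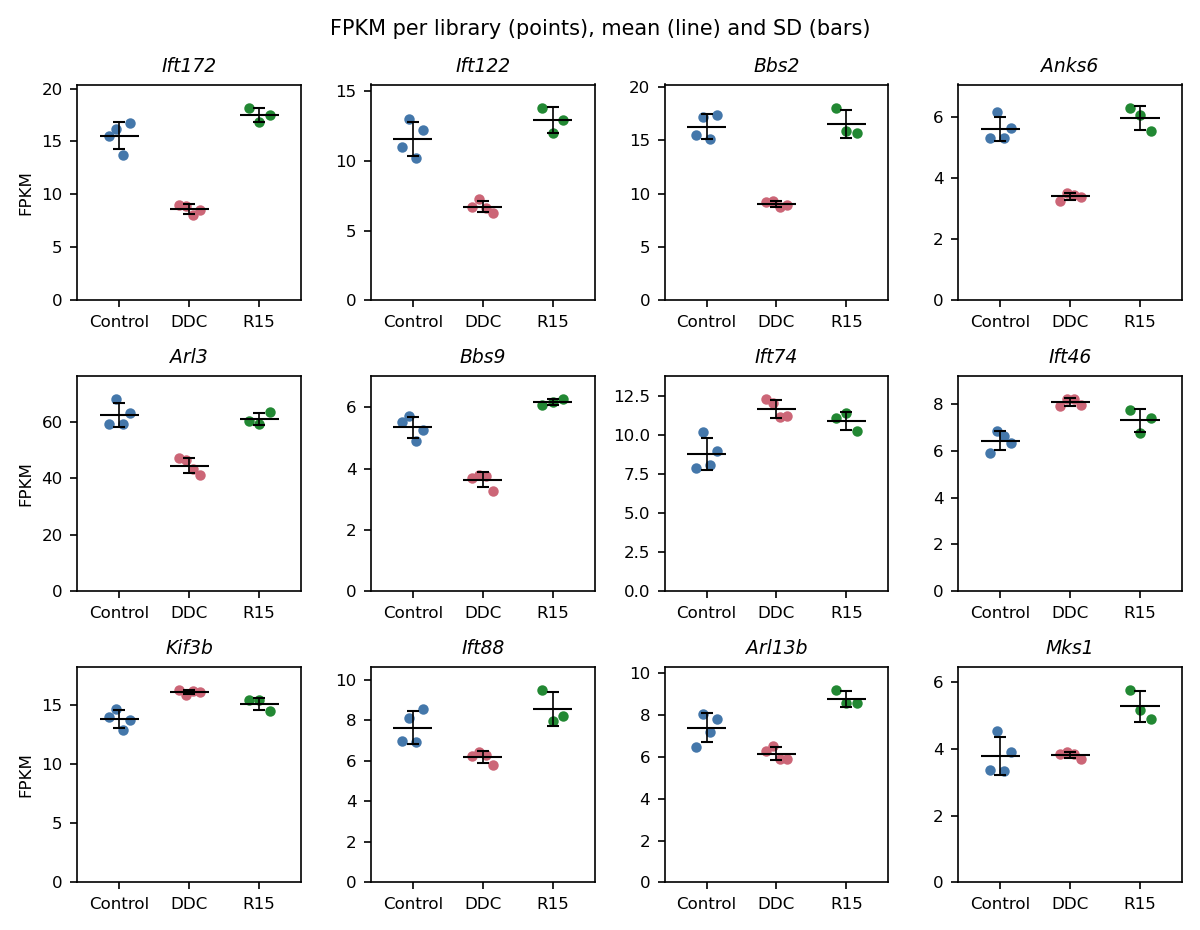
FPKM of 12 members in each library (points), with the group mean (line) and SD (bars), for 4 Control, 4 DDC and 3 R15 libraries; each axis starts at 0. The 4 DDC libraries lie below all others for Ift172, Ift122, Bbs2, Anks6, Arl3, Bbs9 and Ift88, and above all Control libraries for Ift74, Ift46 and Kif3b.

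The transition zone is the gate between cell body and cilium. On the diet 2 of its 9 members were lower and 1 higher (33.3% called, against 65.4% of all genes). In R15 against DDC 6 of 9 were higher (66.7% called, against 62.2% of all genes). The 2 lower genes belong to the MKS module at the ciliary membrane. Tmem231 was at -0.44 ± 0.08 and Cc2d2a at -0.37 ± 0.12, the latter a call lost without DDC 3. In R15 against DDC they were at 0.62 ± 0.08 and 0.59 ± 0.12. B9d1 (ENSMUSG00000001039; mm10 chromosome 11, 61505144 to 61512931), a B9-domain protein of the same complex, was the higher one, at 8.91, 13.5, 9.34 and 9.97 FPKM in Control, 13.4, 13.6, 13.4 and 12.5 in DDC and 13.1, 12.9 and 12.8 in R15. Control 2 lay inside the DDC range and the other 3 Control libraries below it. The change was 0.33 ± 0.10 (limma adjusted p = 0.017), and 0.25 with no call when libraries were rescaled to one total. Mks1 (ENSMUSG00000034121; mm10 chromosome 11, 87853215 to 87863803), its partner with the same domain, stood at 3.38, 4.53, 3.34 and 3.90 FPKM in Control, 3.86, 3.91, 3.85 and 3.69 in DDC and 5.78, 5.17 and 4.88 in R15. Control and DDC overlapped, and the R15 libraries were the 3 highest. It was at 0.02 ± 0.08 on the diet (95% interval -0.16 to 0.20), 0.38 ± 0.09 in R15 against DDC (limma adjusted p = 0.0036) and 0.40 ± 0.09 in R15 against Control (adjusted p = 0.022). Cep290 (ENSMUSG00000019971; mm10 chromosome 10, 100488289 to 100573655), which links membrane and microtubules, stood at 4.08, 4.93, 3.78 and 5.04 FPKM in Control, 4.16, 4.25, 3.82 and 3.82 in DDC and 6.09, 5.31 and 4.86 in R15. Control 3 lay below the whole DDC group, so Control and DDC overlapped. The change was -0.12 ± 0.09 on the diet, not called (limma adjusted p = 0.27), and 0.35 ± 0.10 in R15 against DDC (adjusted p = 0.0085). Rpgrip1l and Tmem67 followed the same course, at -0.14 ± 0.08 and -0.19 ± 0.09, not called, then 0.37 ± 0.09 and 0.42 ± 0.10, called. Nphp4 and Tmem216 were not called in any comparison.

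Separate motors serve the transport directions. Among the members on the diet the dynein gene Dync2h1 was lower and the kinesin gene Kif3b higher, a difference that was not itself tested. Further subunits, singled out after their values were seen, did not divide by motor. The kinesin-2 gene Kifap3 was lower, at -0.25 ± 0.06. Of the dynein-2 genes Dync2li1 was lower, at -0.47 ± 0.09, Tctex1d2 higher, at 0.28 ± 0.09, and Wdr34 and Wdr60 were not called. Dync2h1 (ENSMUSG00000047193; mm10 chromosome 9, 6928503 to 7184446), the heavy chain of the dynein-2 motor that runs back to the base, stood at 4.93, 6.23, 3.97 and 5.74 FPKM in Control, 3.96, 3.87, 3.72 and 3.67 in DDC and 7.85, 6.94 and 6.40 in R15. DDC was lowest, but Control 3 was within 0.01 FPKM of DDC 1. Its change was -0.36 ± 0.11 (limma adjusted p = 0.013) and 0.74 ± 0.12 in R15 against DDC (adjusted p = 3.5e-04). Kif3b (ENSMUSG00000027475; mm10 chromosome 2, 153291413 to 153333390), a motor subunit of the outward kinesin-2, stood at 14.0, 14.7, 12.9 and 13.8 FPKM in Control, 16.3, 15.9, 16.2 and 16.1 in DDC and 15.4, 15.4 and 14.5 in R15. The DDC libraries were the 4 highest, at 0.21 ± 0.04 against Control (limma adjusted p = 0.0012), a call lost with libraries rescaled to one total (0.12). Its partner Kif3a (ENSMUSG00000018395; mm10 chromosome 11, 53567379 to 53601967) stood at 15.6, 17.5, 15.0 and 17.7 FPKM in Control, 18.8, 18.6, 18.1 and 17.0 in DDC and 20.1, 21.3 and 18.6 in R15. Control and DDC overlapped, at 0.13 ± 0.06 (limma adjusted p = 0.083), and R15 was above Control at 0.27 ± 0.07 (adjusted p = 0.037).

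Arl13b and Arl3 are small GTPases of the cilium, the first activating the second, which releases lipid-anchored cargo there. Both were lower on the diet (100% called, against 65.4% of all genes). Both were also higher in R15 than in DDC (100% called, against 62.2%). Arl13b (ENSMUSG00000022911; mm10 chromosome 16, 62793685 to 62847040) stood at 6.50, 8.08, 7.22 and 7.80 FPKM in Control, 6.30, 6.52, 5.91 and 5.91 in DDC and 9.23, 8.58 and 8.57 in R15. Control 1 and DDC 2 overlapped by a narrow margin. The change was -0.23 ± 0.06 (limma adjusted p = 0.0089) and 0.45 ± 0.07 after the diet (adjusted p = 2.8e-04). Arl3 (ENSMUSG00000025035; mm10 chromosome 19, 46531109 to 46573085) stood at 59.2, 68.1, 59.2 and 63.0 FPKM in Control, 47.0, 46.3, 43.2 and 41.3 in DDC and 60.0, 59.2 and 63.5 in R15. DDC was far below both other groups, at -0.48 ± 0.06 (limma adjusted p = 4.4e-05) and then 0.45 ± 0.06 (adjusted p = 1.6e-04). The 2 members of the inversin compartment, the stretch just above the transition zone, fell too (100% called, against 65.4% of all genes). Anks6 (ENSMUSG00000066191; mm10 chromosome 4, 47015669 to 47057306), an ankyrin repeat protein linked to cystic kidney disease, stood at 5.31, 6.14, 5.31 and 5.62 FPKM in Control, 3.26, 3.51, 3.44 and 3.38 in DDC and 6.30, 6.05 and 5.54 in R15. The DDC libraries were the 4 lowest, with a change of -0.58 ± 0.05 (limma adjusted p = 9.3e-06) and of 0.66 ± 0.06 in R15 against DDC (adjusted p = 1.3e-05). Invs, which encodes inversin, was at -0.44 ± 0.07 and 0.61 ± 0.08.

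**Figure D3:**
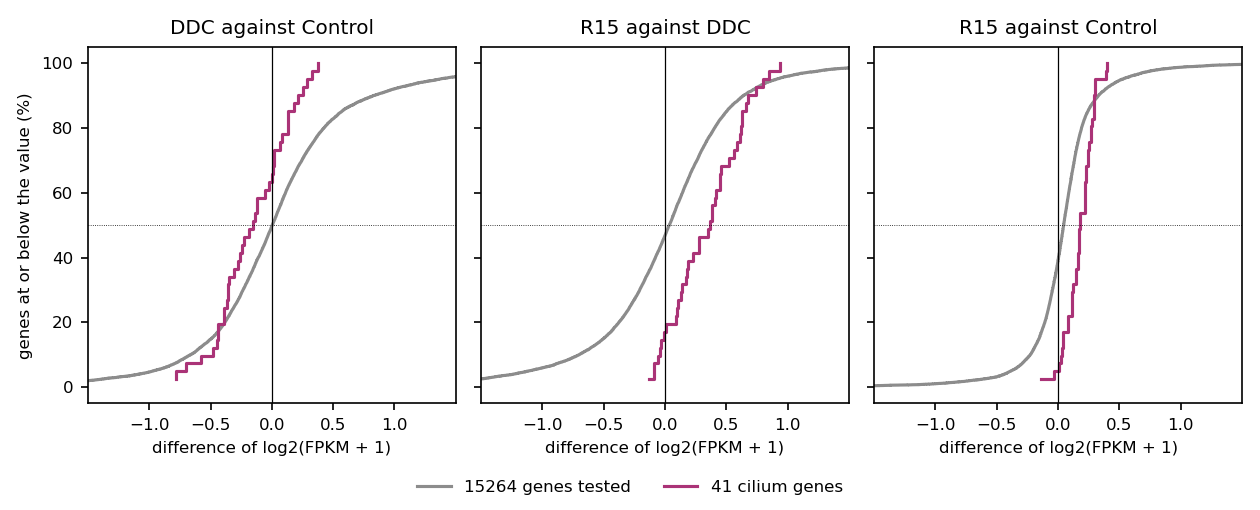
Share of genes at or below each difference of log2(FPKM + 1), for the 41 members (purple) and all 15264 genes tested (grey), in the 3 comparisons. The purple median lies at -0.15 in DDC against Control, 0.37 in R15 against DDC and 0.18 in R15 against Control, with grey medians of 0.00, 0.04 and 0.05.

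Against Control, R15 was slightly higher across the members, with few single genes past the test. Of the 41 members 5 were higher and 0 lower by limma (12.2% called), where 9.58% of all genes were called, 6.87% higher and 2.72% lower. These were Mks1, Ift74, Wdr35, Kif3a and Ift140, the last at 0.23 ± 0.06 (adjusted p = 0.044). At an unadjusted p under 0.05 there were 26 higher and 1 lower. Of the 15264 genes tested 3053 were higher and 1340 lower at that limit (28.8% in either direction). With voom 1 member was higher and 0 lower. The sign of the change was positive in 39 of 41 members and in 60.8% of all genes, or in 34 of 41 with median-of-ratios scaling. In 15 members every R15 library lay above every Control library (15.0% of all genes), and in 0 below (6.30%; 21.3% in either direction). The 5 calls turned on single libraries. Counts with libraries left out are of members alone, without the share of all genes in the same fit. Without Control 2, which was the highest Control library in 36 of the 41 members, 17 were called. Without Control 1, R15 1 or R15 2 there were 0, without Control 3 there was 1, without Control 4 there were 3, without R15 3 there were 3 higher and 1 lower (Ift20), and with any DDC library left out 1 or 2. Without the 5 libraries rich in pancreatic transcripts there were 0. The Control libraries spread more than the others over the members, with a median coefficient of variation of 10.7% against 4.64% in DDC and 5.94% in R15.

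Other genes of the cilium, none of them members, were counted in the same fit. Of all genes tested 31.9% were lower and 33.5% higher on the diet, then 33.4% higher and 28.8% lower in R15 against DDC. In the order given here, the lists had 66.7%, 71.4%, 46.2%, 53.3% and 71.4% called on the diet, against 65.4% of all genes. In R15 against DDC they had 83.3%, 71.4%, 23.1%, 86.7% and 71.4%, against 62.2%. Of 12 further IFT and motor genes tested 5 were lower and 3 higher on the diet, and 8 higher and 2 lower in R15 against DDC. Hspb11, the IFT25 subunit, was at -0.42 on the diet and Dynll1, a light chain shared by many dyneins, at 0.98. Of 7 BBSome partners and chaperones 4 were lower and 1 higher, then 5 higher and 0 lower. The chaperonin-like genes Mkks, at -0.55, and Bbs10, at -0.28, had the smallest p on the diet. The 13 further transition zone and inversin genes had 4 higher and 2 lower on the diet, then 3 higher and 0 lower. Tmem107 was at -0.76 and B9d2 at 0.39. Of 15 basal body and distal appendage genes 5 were lower and 3 higher, then 10 higher and 3 lower, with Cep83 at 0.54 and Odf2 at 0.43. Of 7 genes for ciliary lipid and cargo handling 2 were lower and 3 higher, then 2 higher and 3 lower, with Unc119 at 0.60 and Inpp5e, the ciliary phosphoinositide phosphatase, at -0.49.

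Among the cilium's sensors and Hedgehog genes some changes on the diet were larger than that of any member, which reached -0.78. On the diet 100% of the tested sensor genes were called, 85.7% of the Hedgehog genes and 66.7% of the transcription factors below. The share of all genes was 65.4%. In R15 against DDC the shares were 100%, 57.1% and 55.6%, against 62.2% of all genes. Of 6 sensor genes tested 4 were lower and 2 higher on the diet, with the cyclase gene Adcy6 at -0.74, the polycystin genes Pkd2 at -0.80 and Pkd1 at -0.27, and Pkhd1, which encodes fibrocystin, at -1.41. The higher ones were the purinergic receptor gene P2ry12, at 1.68, the largest change of the list, and the channel gene Trpv4, at 0.51. In R15 against DDC the 4 that fell were higher and the 2 that rose lower, P2ry12 at -1.15 and Trpv4 at -0.46. The macrophage markers also rose on the diet, with a median of 3.03, and fell in R15 against DDC, with a median of -2.42. Their part in the sensor values was not tested. Pkd1, Pkhd1, P2ry12 and Trpv4 were singled out after their values were seen. Of 7 Hedgehog genes tested 4 were lower and 2 higher, with the receptor gene Ptch1 at -1.01 and Evc at -0.79, then 4 higher and 0 lower. The Hedgehog effectors Gli1, Gli2 and Gli3 and the inhibitor Hhip lay under the filter, with group means of at most 0.17 FPKM. Of 9 ciliogenesis transcription factors 3 were lower and 3 higher, then 5 higher and 0 lower. Glis3 was at -0.79. Rfx3, an X-box factor, was at 2.09, 2.35, 2.09 and 2.64 FPKM in Control, 1.39, 1.53, 1.45 and 1.45 in DDC and 2.91, 2.83 and 2.40 in R15. It fell by 0.42 on the log2 scale and was at 0.59 in R15 against DDC, while Rfx2 rose by 0.25 and Rfx1, at -0.14, was not called on the diet. These RFX genes were singled out after their values were seen, as were the Gli genes and Hhip.

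Most of the cilium disassembly genes and all of the cell cycle genes listed moved opposite to most called members in the same libraries. Of 9 disassembly genes 6 were higher and 0 lower on the diet (66.7% called), then 1 higher and 6 lower (77.8%). Of all genes tested 65.4% were called on the diet, 33.5% higher, and 62.2% in R15 against DDC, 28.8% lower. At an unadjusted p under 0.05 on the diet 7 disassembly genes were higher, as were 5327 of the 15264 genes tested. Nek2 was at 2.14 and Aurka at 1.93, both also mitotic genes. All 15 cell cycle genes were higher on the diet and all 15 lower in R15 against DDC, with medians of 2.27 and -2.31; Rrm2 was at 2.28 and Cdk1 at 2.69 on the diet. Their summed level was 47.2 to 74.6 FPKM in Control, 241.0 to 255.0 in DDC and 50.9 to 64.4 in R15. Summed FPKM of the 41 members was 436.5 to 516.5 in Control, 395.1 to 430.1 in DDC and 497.2 to 529.1 in R15. The part of the cell cycle in the members' changes was not tested.

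**Figure D4:**
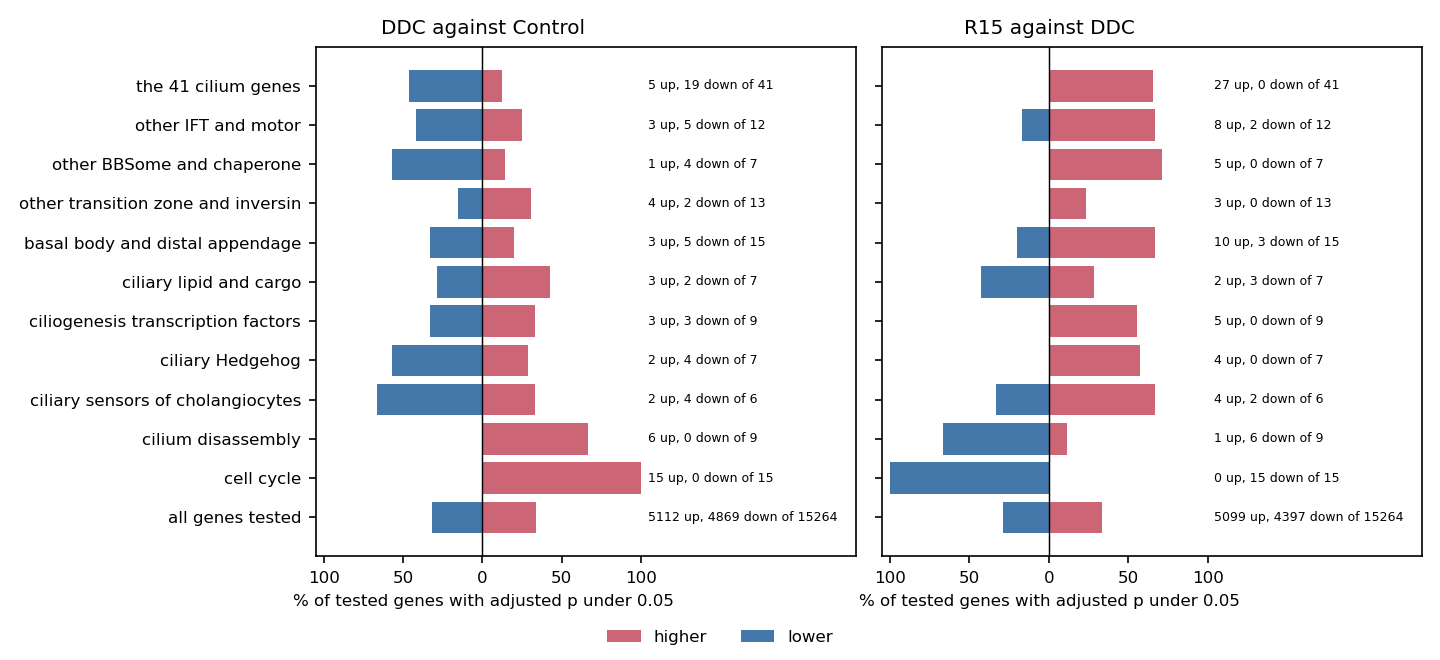
Percent of tested genes with a limma adjusted p under 0.05 that were higher (red, to the right) or lower (blue, to the left) in DDC against Control and in R15 against DDC, for the 41 members, 10 other lists and all genes tested; numbers give the counts. The members stand at 19 lower and 5 higher on the diet and at 27 higher and 0 lower after it, and the cell cycle list at 15 higher and then 15 lower.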

How the data were processed

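Polyadenylated RNA was sequenced in 11 libraries made with a strand-keeping kit, per the labels' protocols. Values are FPKM per gene as deposited by the authors in a single table, on mm10 per the submitters' processing notes. The aligner, counter and annotation release were not given in the sources used here. Whole reads were recovered for 100% of nonzero values (tolerance 0.001), taking the gene length plus 1 base, inferred from the values, and used for depth and for voom. The 15264 genes that reached 1 FPKM in 3 or more libraries were tested as log2(FPKM + 1), which understates changes of low genes, in 1 limma 3.58.1 fit (R 4.3.3) of 3 groups with trended empirical Bayes variances, 2-sided, Benjamini-Hochberg over all genes, threshold 0.05. The test was run on simulated data first. Counting strand is unknown, and 7 members (Ift88, Ift57, Bbs4, Tmem67, Tmem216, Cep290, Invs) share exon bases with a gene on the other strand in GENCODE M21, none over 10% of their exon bases.

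Members and lists were chosen with earlier results of these data known. Full values were given for the members called with the largest change (up to 6 each way on the diet, 3 each way elsewhere) and for Ift88, Arl13b, Kif3a, Cep290 and Dync2h1; of other lists, the 2 genes of smallest p. The values of 1 gene that this rule selects are not reported here. Library values, SDs and intervals cover the spread between libraries. No 2 libraries of the same group were duplicates, and pairs across groups were not checked for this. Alternatives were other pseudocounts, filters, scalings, weights, voom, gene sets and thresholds, the replicate number as a block, and libraries left out.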

Additional observations from a re-analysis of the deposited data

Results flagged for a closer look

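In 82 groups of 4 libraries (41 members in Control and in DDC), 2 had a library far from the other 3, where chance gives about 1 in 20. Wdr19 in DDC 2 stood at 6.47 FPKM against 5.88 to 5.98 in the other DDC libraries. Tmem216 in Control 2 stood at 8.76 FPKM against 6.98 to 7.14 in the other Control libraries.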

How the results depend on the processing

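Every called member kept its direction under all 25 alternatives that change the data or fit, or those of them in which it was tested, in each comparison. Of the 24 members called on the diet 19 kept their call in all of these, as did 23 of 27 in R15 against DDC and 0 of 5 in R15 against Control. The counts that follow are of members alone, without the share of all genes under each setting. The count of members higher on the diet was 2 with libraries rescaled to one total, 3 at an adjusted p under 0.01 and 4 to 9 with 1 library left out (9 without Control 2). The count lower in R15 against DDC was 2 with median-of-ratios scaling, array weights or voom, 1 with quantile normalization and 0 to 1 with 1 library left out. In R15 against Control the count called, all of them higher, was 1 with no filter, rescaling to one total, median-of-ratios scaling, voom or array weights, and 0 with quantile normalization, only the 2 groups compared, the 5 libraries with pancreatic transcripts left out, or an adjusted p under 0.01. It ran from 0 to 17 with 1 library left out, with 0 to 1 lower; the cause was not tested. Without those 5 libraries a lone Control library remained, assumed to vary like the other groups. The median change on the diet was then -0.25 for the members and 0.02 for all genes. With the replicate number as a block 23 members were called on the diet, 25 in R15 against DDC and 0 in R15 against Control. Correlations of deviations ran from -0.28 to 0.30 for libraries with the same number and from -0.54 to 0.60 for the others. So few libraries per group cannot exclude pairing. The labels state none, so the numbers are not taken as pairs. Groups of 3 or 4 libraries limit the precision, and the lowest count of a member was 436 reads.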

Other observations

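Foxj1, the transcription factor of motile cilia, was abundant in these libraries and higher on the diet, where 19 members were lower and 5 higher. In Control its FPKM was 39.6, 65.1, 33.8 and 42.0, on the diet 71.7, 78.8, 66.2 and 63.9, and after it 74.0, 75.8 and 78.2. Control 2 reached into the DDC range, and R15 lay above every Control library. The change was 0.66 in DDC against Control (limma adjusted p = 0.0048), 0.12 in R15 against DDC (adjusted p = 0.59) and 0.78 in R15 against Control (adjusted p = 0.026). Of 19 motile cilium genes, Foxj1 included, 8 passed the filter on low values. Of these 4 were higher and 3 lower on the diet, 4 higher and 1 lower in R15 against DDC, and 1, Foxj1, higher in R15 against Control. The shares called were 87.5%, 62.5% and 12.5%, against 65.4%, 62.2% and 9.58% of all genes. Mcidas, a regulator of multiciliated cells, was at 0 in all libraries, and Ccno, another, was at most 0.11 FPKM. Beside Foxj1, the genes higher on the diet were Cfap43, at 0.73, Rsph1, at 0.43, and Ccdc113, at 0.31. Foxj1, Rsph1, Ccdc113, Mcidas, Ccno, Ccdc39 and Tekt2 were singled out after their values were seen. The axonemal dynein gene Dnah5 averaged 3.41 FPKM in Control, 0.497 on the diet and 3.65 after it, with changes of -1.53 in DDC against Control and 1.62 in R15 against DDC. Ccdc39, which sets the spacing of axonemal dyneins, was at -0.50 and 1.01, and Tekt2, a tektin of the axoneme, at -0.40 and 0.52. Cfap43 was at -0.48 in R15 against DDC.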
